A study of Homo sapiens with 4 samples.

Results

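The genes described here are the ATP-binding cassette (ABC) transporters of JJ012, an established human chondrosarcoma cell line, taken as every row of the deposited expression table whose symbol is ABC, a subfamily letter from A to G and a number. The rule found 46 genes among the 61806 of the table: 12 in subfamily A, 9 in B, 12 in C, 4 in D, 1 in E, 3 in F and 5 in G. The untreated group had 2 libraries from JJ012 cells labelled wild type, from bone, with no treatment and no vehicle named. The Antcin K group had 2 libraries from the same line given 10 µM Antcin K, a triterpenoid of the medicinal fungus Antrodia cinnamomea, for 24 h. Both groups were grown in the same mixed medium with fetal bovine serum, which carries lipoproteins and therefore sterols. All libraries come from 1 cell line, and the labels do not state whether replicates were grown separately, so a p-value here reflects how far the libraries differ, a spread that may be technical. Genes were counted in all libraries as fragments per gene, and the 4 libraries held between 16911257 and 26270686 counts.

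ABC proteins bind and hydrolyse ATP through a conserved nucleotide-binding domain. Most use that energy to carry a substrate across a membrane: lipids and sterols in subfamilies A and G, drugs and conjugates in B and C, and fatty acyl compounds of the peroxisome in D. Subfamilies E and F have the ATP-binding domains but no membrane domain, and act on ribosomes and translation. The sterol exporters ABCA1 and ABCG1 are textbook targets of the liver X receptors (LXR), nuclear receptors that sense oxysterols, and are best known in macrophages and liver. Several drug pumps of subfamilies B, C and G, ABCB1 and ABCC1 above all, are studied in sarcomas because they can export chemotherapeutic drugs.

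The cartilage identity of the line was only partly visible in its RNA. Of 12 chondrocyte and chondrosarcoma markers, 6 passed the count filter. Of these 6, 1 was higher and 5 were lower with treatment, where 46.2% of all tested genes were higher and 53.8% lower. Their median log2 fold change was -1.17, with RUNX2 at -1.78, SOX5 at -1.47 and COL11A1 at -1.42. The edgeR test called 0 of the 6 (against 0.00% of all genes), or 1 without a count filter (against 0.723%). SOX9, the master regulator of cartilage, had 563 and 145 counts in untreated replicates 1 and 2 and 112 and 176 after Antcin K, while COL2A1, the type II collagen gene, had 0 counts in all libraries. PTPRC and LYZ, which define blood and myeloid cells, were also at 0. The summed level of the 11 macrophage and blood markers was 23.0 and 33.9 CPM (counts scaled to library size) untreated and 13.0 and 16.3 CPM after Antcin K, most of it from CSF1R. The other marker sums were 4.59 to 6.89 CPM for the 6 epithelial markers, 7.77 to 12.6 CPM for the 5 endothelial ones and 16.8 to 24.8 CPM for the 5 hepatocyte ones over all libraries, and the chondrocyte sum, mostly vimentin, was 5410 and 2775 CPM without treatment against 2332 and 3451 CPM with it. The share of counts from the mitochondrial genome was 26.0% in untreated replicate 1, 12.9% in replicate 2, 13.5% in Antcin K replicate 1 and 19.3% in replicate 2. The part of these differences in the results below was not tested.

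Promoter sequence from RefSeq (GRCh38.p14) was at hand for 35 of the 46 genes. The stretches shown are the 250 bases before the gene start that RefSeq lists, on the gene's strand; for ABCE1, ABCC4 and ABCF1 this start differs from the one in the deposited table, so that the window reaches into the deposited gene. ABCA1 is shown because LXR is known to act on its promoter through a direct repeat of the nuclear receptor motif AGGTCA, ABCE1 because it had the lowest p of the family, and ABCC4 and ABCF1 as members with a higher mean whose promoters hold the core letters of the antioxidant response element. The motifs were chosen with the results, and for ABCE1 the sequence, in view. In ABCA1 (chr9:104928156-104928405, minus strand), capitals mark the only match to a relaxed direct repeat, 2 copies of AGGTCA with 1 free base in each and 4 bases between them, which reads on the opposite strand from 69 to 54 bases before the start.
ABCA1: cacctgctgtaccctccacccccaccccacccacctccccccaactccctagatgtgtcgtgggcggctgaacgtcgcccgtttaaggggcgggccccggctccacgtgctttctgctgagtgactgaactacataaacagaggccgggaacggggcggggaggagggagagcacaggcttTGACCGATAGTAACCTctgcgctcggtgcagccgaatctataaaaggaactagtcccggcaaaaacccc
In ABCE1 (chr4:145098061-145098310, plus strand), capitals mark the cAMP response element TGACGTCA, from 98 to 91 bases before the start.
ABCE1: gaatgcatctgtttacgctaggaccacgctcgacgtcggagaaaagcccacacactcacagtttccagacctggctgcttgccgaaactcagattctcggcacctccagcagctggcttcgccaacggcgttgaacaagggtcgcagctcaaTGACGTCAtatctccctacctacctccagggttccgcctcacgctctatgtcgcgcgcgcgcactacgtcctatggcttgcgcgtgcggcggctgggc
In ABCC4 (chr13:95301452-95301701, minus strand) and ABCF1 (chr6:30571192-30571441, plus strand), capitals mark the antioxidant response element core TGACNNNGC, both on the opposite strand.
ABCC4: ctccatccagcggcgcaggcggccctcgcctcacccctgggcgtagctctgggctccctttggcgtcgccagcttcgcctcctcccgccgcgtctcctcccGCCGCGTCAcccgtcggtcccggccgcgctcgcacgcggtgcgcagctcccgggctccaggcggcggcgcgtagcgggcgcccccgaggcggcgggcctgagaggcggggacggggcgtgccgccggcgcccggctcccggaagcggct
ABCF1: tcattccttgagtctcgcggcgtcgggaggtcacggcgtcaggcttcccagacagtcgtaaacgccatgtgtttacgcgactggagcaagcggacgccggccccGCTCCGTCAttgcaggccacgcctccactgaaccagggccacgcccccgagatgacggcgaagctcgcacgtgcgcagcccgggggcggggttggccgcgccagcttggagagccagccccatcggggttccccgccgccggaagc

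Both strands were searched, and a gene was counted where any of its listed starts held the letters. The relaxed direct repeat was found in ABCA1 alone of the 35 genes, against 0.103% of all 27305 genes with a promoter, and the strict repeat, with no free base in either copy, in 0 of the 35, against 0.0183% of all. The free bases of the relaxed repeat lie exactly where the ABCA1 stretch departs from AGGTCA. That match can therefore not be weighed against the share of all genes. The cAMP response element was found in ABCE1 alone, against 2.03% of all. The antioxidant core was in 9 of the 35, against 13.2% of all genes, and of these 9, all of which passed the count filter, 3 were higher on average with treatment and 6 lower. The E-box CACGTG was in 8 of the 35, against 7.73% of all, ABCA1 among them. The CCAAT box, letters CCAAT, was in 11 of the 35, against 37.0% of all genes. A match describes the sequence and is no evidence that a factor binds there.

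In JJ012 the family was led by its members without a membrane domain. Each of the 46 genes had at least 1 count in the 4 libraries together, but 26 stayed under an FPKM (fragments per kilobase of exon, scaled to the library total) of 0.5 in every library. ABCF1, which takes part in translation initiation, had the highest level, at 24.6 and 18.3 FPKM without treatment against 25.5 and 28.8 FPKM with it. ABCF3 had 13.7 and 14.6 FPKM without treatment against 16.8 and 17.0 FPKM with it, and these 2 genes alone were at 10 FPKM or more in all libraries. Among the highest after these in untreated cells came ABCC2 at 8.18 ± 0.636 FPKM and ABCF2 at 8.01 ± 0.665 FPKM (SD, n = 2), whose libraries overlapped, so they have no order. ABCB8 (5.65 ± 0.304 FPKM) and ABCE1 (5.47 ± 0.304 FPKM) overlapped as well, and ABCA3 followed at 4.53 ± 0.955 FPKM. Of the FPKM summed over the family, subfamilies E and F held 51.1% and 53.6% in untreated cells and 56.0% and 57.1% after Antcin K, and subfamily G held 0.154% to 0.264% over the 4 libraries.

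**Figure D1:**
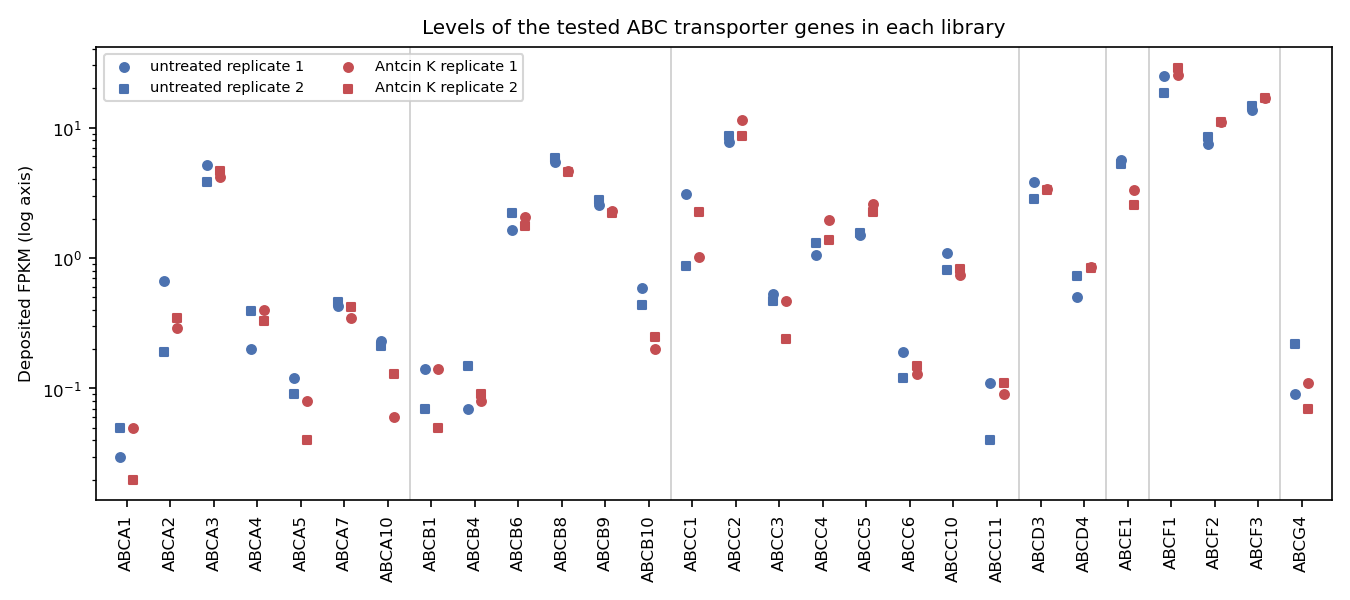
Deposited FPKM (log axis) of 28 of the 30 ABC transporter genes that passed the count filter, in each of the 2 untreated (blue) and 2 Antcin K (red) libraries, with vertical lines between subfamilies. ABCF1 and ABCF3 lie highest, and ABCA1 lies lowest, at 0.02 to 0.05 FPKM.

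Whether treatment moved any member was tested with edgeR on all genes with enough counts (30 of the 46 members among 14717 genes), with p adjusted over all of them. By that test 0 of the 30 members were called at an adjusted p under 0.05, as was 0.00% of all tested genes. The lowest adjusted p in the family was 0.366, for ABCE1. DESeq2 gave 9 of the 30 no adjusted p and called 0 of the others, against 0.514% of all genes it adjusted, and edgeR without a count filter called 0 of the 30, against 0.723%. Of the 30, 4 had an unadjusted p under 0.05 (13.3%, against 12.4% of all genes), namely ABCE1, ABCB10 and ABCA10 with lower means (lower with such a p in 7.61% of all genes) and ABCC5 with a higher one. Means were higher after Antcin K in 9 (30.0%, against 46.2% of all genes) and lower in 21 (70.0%, against 53.8%), with a median log2 fold change of -0.22 against -0.05 over all genes. That lean depended on low genes and on a library. Among the 17 members with a mean of at least 0.5 FPKM, 58.8% were higher on log2(FPKM + 1), against 54.2% of all such genes, with a median of 0.016. Without untreated replicate 1 the members' median was 0.09, with 16 of 30 higher, while the median of all genes was 0.00. Without Antcin K replicate 1, 14 of 30 were higher. Both Antcin K libraries lay above both untreated ones in 6 of the 30 (20.0%, against 22.6% of all genes) and below in 9 (30.0%, against 23.3%), shares near the background. An exact permutation test over the 4 libraries could not go below p = 0.333 for a single gene.

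**Figure D2:**
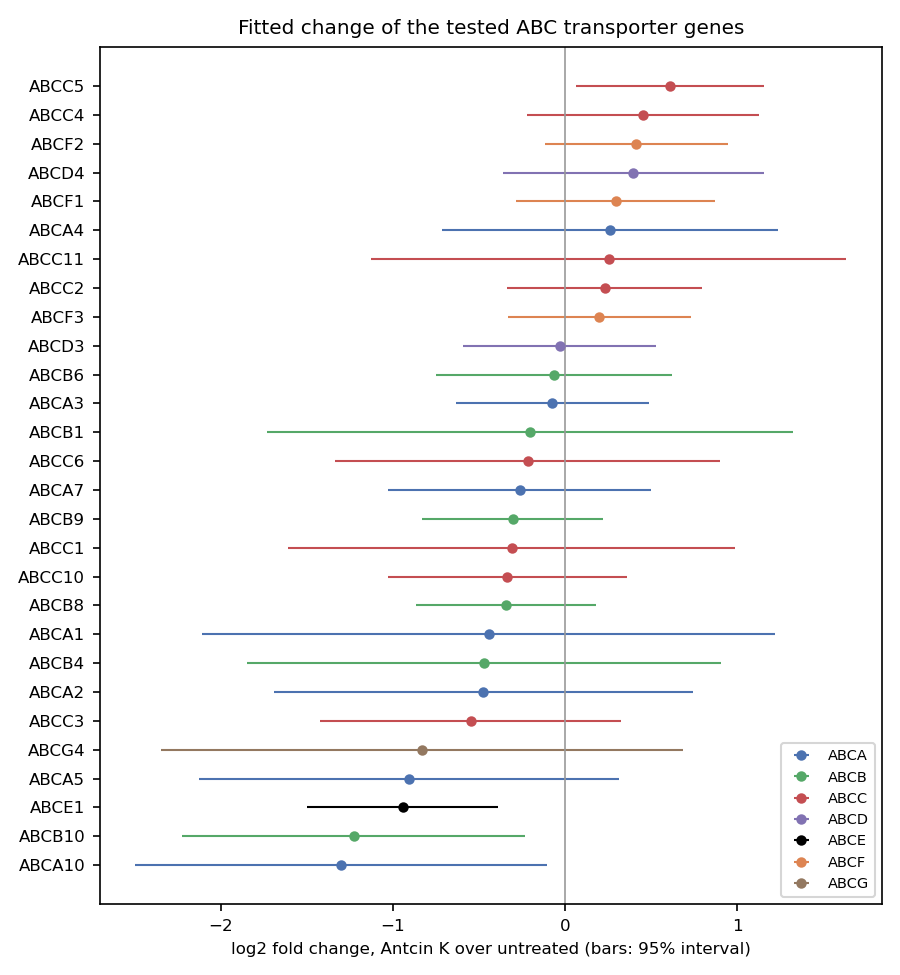
Fitted log2 fold change of 28 of the 30 tested members, Antcin K over untreated, with its 95% interval (edgeR), coloured by subfamily. The intervals of ABCE1, ABCB10, ABCA10 and ABCC5 leave out 0, with no adjustment for the number of genes tested.

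The sterol exporters were close to silent in both groups. As in any bulk sample, fewer cells that express a gene and less of its RNA per cell cannot be told apart. ABCA1, which loads cellular cholesterol and phospholipid onto apolipoprotein A-I, had 10 and 11 counts in untreated replicates 1 and 2 and 11 and 3 after Antcin K, or 0.03, 0.05, 0.05 and 0.02 FPKM. Its groups overlapped, at 0.376 and 0.616 CPM without treatment against 0.509 and 0.179 CPM with it. The log2 fold change was -0.44 with a 95% interval of -2.11 to 1.22 (edgeR, adjusted p = 0.824). ABCG1, which passes cholesterol to high-density lipoprotein, had 4 and 1 counts in the control libraries against 16 and 2 in the treated ones, too few to pass the filter. The highest of these, in Antcin K replicate 1, was 0.741 CPM and the other Antcin K library had 0.120 CPM.

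ABCG4, a relative of ABCG1 known from brain, was the only member of subfamily G to be tested. It had 14 and 26 counts in the control libraries against 14 and 7 in the treated ones, with a log2 fold change of -0.83 (edgeR, adjusted p = 0.618) that was 0.05 without untreated replicate 2. ABCG5 and ABCG8, which pair to excrete sterols in liver and gut, had 2 and 6 counts over the 4 libraries, and their loci overlap on opposite strands. In a library, 0 counts allow up to 3, which was 0.113 to 0.179 CPM here. ABCG2, the breast cancer resistance protein gene, had 4 and 0 counts in the control libraries against 1 and 5 in the treated ones.

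Elsewhere in subfamily A the levels were led by ABCA3, known from lung as the lipid pump of surfactant storage bodies. It had 5.20 and 3.85 FPKM without treatment against 4.20 and 4.66 FPKM with it, with overlapping groups and a log2 fold change of -0.07. ABCA17P, a pseudogene on the opposite strand that overlaps it, held 2026 counts against 2922 for ABCA3, and without knowledge of the strand setting the reads cannot be told apart. ABCA10, from the cluster of A genes on chromosome 17, had 50 and 33 counts in the control libraries against 10 and 18 in the treated ones. Its levels of 1.88 and 1.85 CPM untreated lay above the 0.463 and 1.08 CPM after Antcin K, with a log2 fold change of -1.30 (standard error 0.52) by edgeR (adjusted p = 0.388). Left-out libraries gave -1.95 to -0.76.

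The neighbouring ABCA5, whose product is found in lysosomes and late endosomes, overlaps ABCA10 on the same strand. It had 42 and 21 counts in the control libraries against 21 and 8 in the treated ones, again with both treated libraries lower, and a log2 fold change of -0.91, from -1.50 to -0.46 with each library left out (edgeR, adjusted p = 0.50). ABCA2, an endolysosomal transporter of nervous tissue, had 203 and 40 counts untreated and 68 in each Antcin K library. The untreated libraries lay on both sides of the treated ones, and the log2 fold change of -0.47 became 0.68 without untreated replicate 1. ABCA7, a phospholipid transporter known as a risk gene for Alzheimer's disease, had -0.26 and ABCA4, the retinoid transporter of photoreceptors, 0.26, which was -0.16 without untreated replicate 1. The other 5 members of the subfamily, ABCA6, ABCA8, ABCA9, ABCA12 and ABCA13, had 2 to 20 counts in all.

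Among the drug pumps the classical P-glycoprotein gene had few counts, and of subfamily C only ABCC2 stood high, with 4 of the 12 members under the count filter. ABCB1, which encodes P-glycoprotein, had 23 and 9 counts in the control libraries against 19 and 5 in the treated ones, with overlapping groups and a log2 fold change of -0.20 (interval -1.73 to 1.32) by edgeR (adjusted p = 0.920). ABCC2, the organic anion pump of the bile canaliculus in liver, was the most expressed membrane transporter by its mean, at 7.73 and 8.63 FPKM without treatment against 11.4 and 8.56 FPKM with it. The lower treated library lay between the untreated ones, and the log2 fold change was 0.23 (adjusted p = 0.718, edgeR).

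ABCC1, the multidrug resistance protein 1 gene, differed more within the groups than between them. It had 716 and 143 counts in untreated replicates 1 and 2 and 183 and 334 after Antcin K, or 26.9, 8.01, 8.48 and 20.0 CPM. Untreated replicate 1 was thus 3.37-fold above replicate 2, and Antcin K replicate 2 was 2.35-fold above replicate 1. The log2 fold change of -0.31 (edgeR, adjusted p = 0.845) became 0.82 without untreated replicate 1, 0.21 with Antcin K replicate 1 left out and -0.92 without untreated replicate 2. No direction can be given for this gene.

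ABCC5 and ABCC4, exporters of cyclic nucleotides and other organic anions, had higher levels in both treated libraries. ABCC5 had 445 and 333 counts in the control libraries against 606 and 435 in the treated ones, that is 16.7 and 18.6 CPM against 28.1 and 26.0 CPM. The groups did not overlap, with a gap wider than the distance between replicates, and the log2 fold change was 0.61 (standard error 0.24, 1.53-fold higher), with 0.54 to 0.71 when each library was left out. It did not pass over all genes (edgeR, adjusted p = 0.383). ABCC4 had 8.92 and 11.8 CPM without treatment against 16.2 and 12.1 CPM with it, a narrow separation, with a log2 fold change of 0.45 (edgeR, adjusted p = 0.542).

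ABCC3, a pump of bile acid and glucuronide conjugates, had 5.01 and 4.76 CPM without treatment against 4.31 and 2.33 CPM with it, with a log2 fold change of -0.55 that was -0.13 without Antcin K replicate 2 (edgeR, adjusted p = 0.566). The broad-range pump ABCC10 had -0.33 with both treated libraries lower. ABCC6, whose loss causes the ectopic mineralisation disease pseudoxanthoma elasticum, had -0.22 on 86 counts in all, and its pseudogenes ABCC6P1 and ABCC6P2 had 32 and 35 counts, so reads of near-identical copies are uncertain. ABCC11, the earwax-type gene, had 63 counts and overlaps LONP2, with 2311 counts, on the opposite strand, so its value is uncertain too. The sulfonylurea receptor genes ABCC8 and ABCC9 had 4 and 10 counts, and ABCC12 and the pseudogene ABCC13 had 8 and 14.

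Of the mitochondrial members of subfamily B, ABCB10 had the lowest p. Its product sits in the inner mitochondrial membrane and is known for its part in heme formation. It had 66 and 35 counts in the control libraries against 18 and 18 in the treated ones, or 2.48 and 1.96 CPM against 0.834 and 1.08 CPM. Both treated libraries lay well below both untreated ones, and the log2 fold change was -1.23 (standard error 0.44, 2.34-fold lower), from -1.38 to -1.02 with each library left out. It did not pass over all genes (edgeR, adjusted p = 0.374), and at 18 counts a library the counting error alone is large.

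ABCB8, another protein of the inner mitochondrial membrane, had 50.1 and 57.5 CPM without treatment against 41.5 and 43.3 CPM with it, again with separate groups and a log2 fold change of -0.34 (edgeR, adjusted p = 0.549). The lysosomal peptide transporter ABCB9 had 33.8 and 39.1 CPM without treatment against 29.0 and 30.0 CPM with it (log2 fold change -0.30). ABCB6, a porphyrin transporter, had 8.39 and 12.2 CPM without treatment against 10.3 and 9.26 CPM with it (-0.06). The phosphatidylcholine transporter of bile, ABCB4, had 61 counts over the 4 libraries (-0.47), and ABCB5 and the bile salt pump ABCB11 had 3 and 20 counts.

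The members of subfamily D described here did not pass the test. ABCD3, a major protein of the peroxisomal membrane, had 28.9 and 22.8 CPM without treatment against 24.7 and 25.9 CPM with it (-0.03, 95% interval -0.59 to 0.53). ABCD4, which works in lysosomal vitamin B12 release and not in the peroxisome, had 4.40 and 6.89 CPM without treatment against 7.23 and 7.59 CPM with it, without overlap (log2 fold change 0.40, edgeR adjusted p = 0.633), and 0.11 with untreated replicate 1 left out. ABCD2 had 1 count.

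None of the 4 members that act on ribosomes passed the test, and in each of them the groups did not overlap, with ABCE1 lower and the ABCF genes higher (over all genes, 23.3% were lower and 22.6% higher without overlap). ABCE1 (ENSG00000164163, chromosome 4, 145098288 to 145129524, plus strand, hg38), the factor that splits ribosomal subunits for recycling after termination, had 933 and 616 counts in the control libraries against 431 and 271 in the treated ones. Its levels were 35.1 and 34.5 CPM without treatment against 20.0 and 16.2 CPM with it, so the untreated libraries were nearly equal and both treated ones were far below. This is a log2 fold change of -0.94 (standard error 0.24), with an interval of -1.50 to -0.39 (1.92-fold lower), yet the adjusted p was 0.366 (edgeR). Each of the 4 fits without a library gave between -1.08 and -0.75. OTUD4, which overlaps ABCE1 on the opposite strand with 1248 counts against 2251, had a log2 fold change of -0.09.

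ABCF1 had 110 and 86.6 CPM without treatment against 110 and 131 CPM with it, where the lower treated library was barely above the higher untreated one and, with upper quartile scaling, below it, and its log2 fold change was 0.30 (edgeR, adjusted p = 0.644). ABCF2 had 38.5 and 45.9 CPM without treatment against 54.4 and 58.0 CPM with it, a clear separation, and a log2 fold change of 0.41 (edgeR, adjusted p = 0.485). ABCF3, the human relative of yeast GCN20, which serves the sensing of amino acid starvation, had 69.7 and 78.9 CPM without treatment against 82.4 and 88.1 CPM with it, with a log2 fold change of 0.20 (edgeR, adjusted p = 0.742). For all 3 genes the sign held in each of the 4 fits that left out a library, where ABCF1 ran from 0.15 to 0.48, ABCF2 from 0.30 to 0.56 and ABCF3 from 0.12 to 0.30. Their gaps are small beside the interval of each, and that of ABCF2 ran from -0.12 to 0.95.

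**Figure D3:**
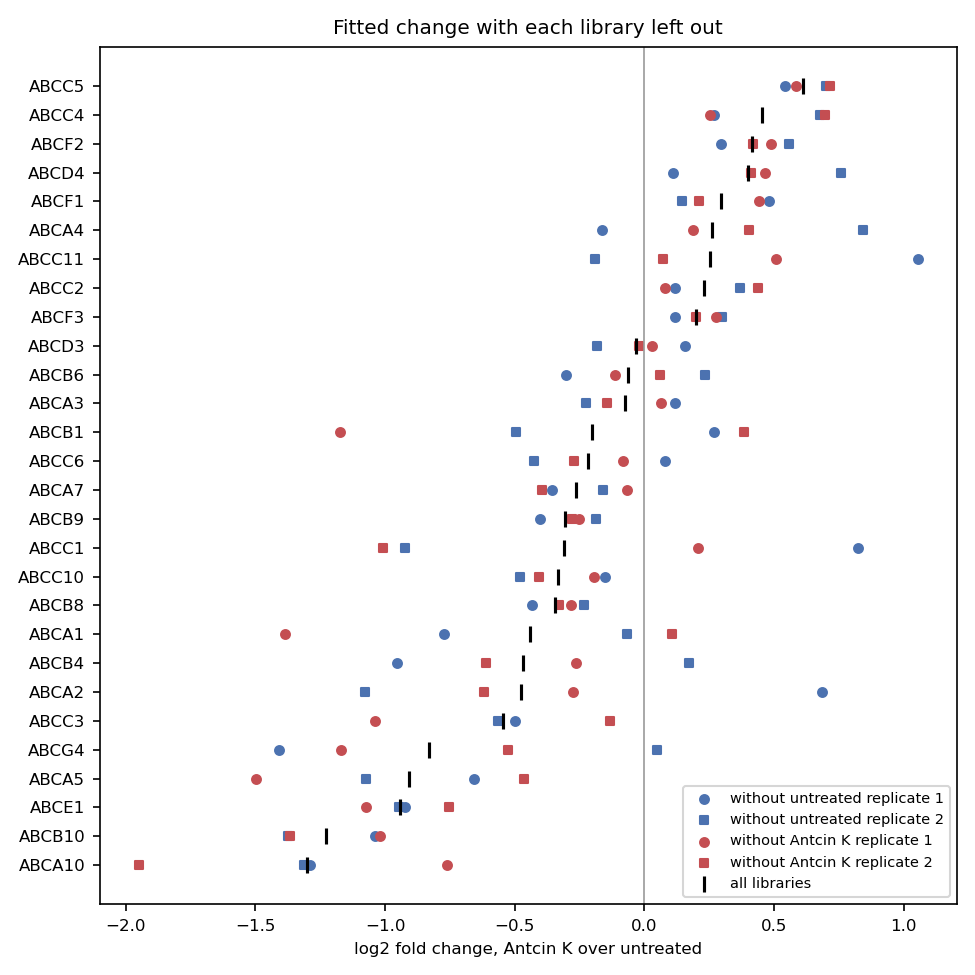
Fitted log2 fold change of 28 of the 30 tested members with all libraries (black bar) and with each library left out in turn (points). ABCE1, ABCB10, ABCC5 and the ABCF genes keep their side of 0, while ABCC1 runs from -1.01 to 0.82.

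Leaving out a library turned the sign of 14 of the 30 tested members at least once and kept it for the other 16. With 1 untreated library left, the spread between replicates comes from the Antcin K pair alone, and the lone library is assumed to vary like that pair. Without untreated replicate 1 the fit called ABCE1 alone of the 30 (3.33%, against 9.38% of all genes), with an adjusted p = 0.00200. Without untreated replicate 2 it called 7 (23.3%, against 25.2% of all genes), among them ABCA2, ABCB10, ABCC1, ABCC5, ABCE1 and ABCF2, and of these ABCA2 and ABCC1 turned their sign without the other untreated library. Fits with the replicate number as a block called 0 members (against 0.177% of all genes), and with the numbers crossed, a choice made after seeing the data, called ABCE1 (against 9.72%). Without either Antcin K library 0 members were called, against 0.0519% and 0.0190% of all genes.

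Several members followed a pattern across libraries that was not that of treatment, as did many genes of the whole table. Of the 30, 12 were higher in untreated replicate 1 than in replicate 2 and also higher in Antcin K replicate 2 than in replicate 1 (40.0%, against 32.6% of all genes). The opposite held for 7 (23.3%, against 33.3%). The first of these patterns was wide in ABCC1 (3.37-fold and 2.35-fold) and, mainly in the untreated pair, in ABCA2 (3.41-fold and 1.29-fold). The libraries with the higher levels in each group were also those with the larger mitochondrial share, 26.0% and 19.3%, and the part of that share in these gaps was not tested. When mitochondrially encoded genes were left out before scaling, the log2 fold change of ABCC1 between the groups was -0.28. That value does not measure the gaps within the groups.

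**Figure D4:**
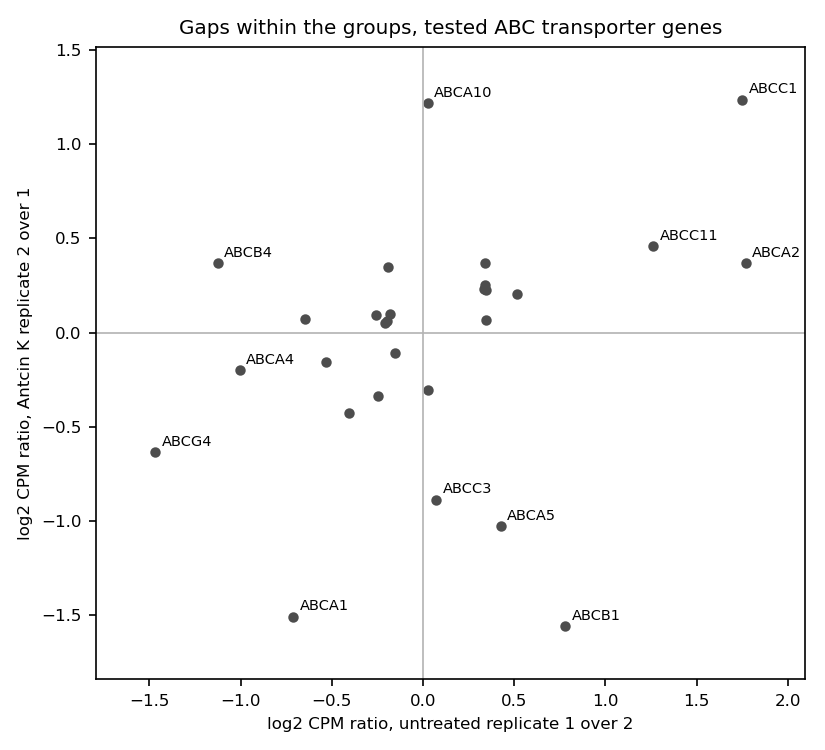
Log2 CPM ratio of untreated replicate 1 over 2 (horizontal) against that of Antcin K replicate 2 over 1 (vertical) for 28 of the 30 tested members, with names where either ratio exceeds 0.7 in size. ABCC1 lies at the upper right, with ratios of 1.75 and 1.24.

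Genes that work with the transporters were examined in 10 lists, and edgeR called 0 of their genes over all genes tested (against 0.00% of all genes), as did DESeq2 (against 0.514%) and edgeR without a count filter (against 0.723%). Among LXR receptors and targets, 6 of 14 tested genes were higher on average and 8 lower (median log2 fold change -0.15). NR1H3, the LXRα gene, had 11.8 and 18.5 CPM without treatment against 10.6 and 8.66 CPM with it (-0.65), its partner RXRA -0.51, and SMPDL3A, an LXR target, 1.15 with 18 and 7 counts in the control libraries against 15 and 30 in the treated ones. For SMPDL3A the value was 0.40 without Antcin K replicate 2 and 1.73 without Antcin K replicate 1. Genes of sterol storage and intracellular transport were 9 higher and 10 lower (median -0.05), with CAV1, the caveolin 1 gene, at 310 and 316 CPM without treatment against 166 and 169 CPM with it (-0.90), NPC2, which carries cholesterol inside the lysosome, at 0.66 and the oxysterol-binding OSBPL9 at -0.60. SREBP2 targets, which make and take up cholesterol, were 8 higher and 10 lower (median -0.16), with the synthesis genes HMGCS1 at -0.80 and IDI1 at -0.62.

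In the ribosome recycling and translation list 7 of 15 were higher and 8 lower (median -0.06). PELO, which acts directly with ABCE1 to rescue stalled ribosomes, had 17.7 and 23.1 CPM without treatment against 39.6 and 36.6 CPM with it (log2 fold change 0.90, edgeR adjusted p = 0.366), opposite in sign to ABCE1, while DENR, a recycling factor, had -0.82 and the initiation factor gene EIF2S2 -0.80. Mitochondrial iron-sulfur and heme genes were 10 higher and 7 lower (median 0.26), where 46.2% of all genes were higher. In that list FECH, the ferrochelatase gene, had 10.5 and 12.2 CPM without treatment against 21.7 and 20.4 CPM with it (0.89), the cysteine desulfurase gene NFS1 had 0.84 and the glutaredoxin gene GLRX5 0.50. Peroxisomal genes were 8 higher and 6 lower of 14 (median 0.10), with PEX16 at -0.72, the import receptor gene PEX5 at 0.60 and SCP2 at -0.82, which was -0.25 without untreated replicate 1.

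The ABC genes TAP1 and TAP2, peptide transporters of antigen presentation whose symbols lie outside the rule, had log2 fold changes of 0.77 and 0.51 with both treated libraries higher, and CFTR had 0 counts. TAPBP, the tapasin gene, had -1.09, or -0.32 without untreated replicate 1, and 2 of the 5 tested genes of that list were higher (median -0.07). Glutathione genes were 8 higher and 7 lower (median 0.08), with GSR at 0.65, SLC7A11 at 0.63 and GSTA4 at 1.37. GSTA4 had 4 and 9 counts in the control libraries against 18 and 13 in the treated ones, and its log2 fold change was 0.68 with untreated replicate 1 left out and 2.39 with replicate 2 left out. Xenobiotic sensors were 4 higher and 5 lower of 9 (median -0.13), with ARNT at 0.64, HIF1A at -0.76 and PPARA at 0.44. KCNJ11, the channel partner of ABCC8, had 6 and 4 counts in the control libraries against 20 and 11 in the treated ones (1.80) and was the only tested gene of its list of 2. Adjusted p over all genes ran from 0.366 to 0.990 across the 10 lists (edgeR).

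**Figure D5:**
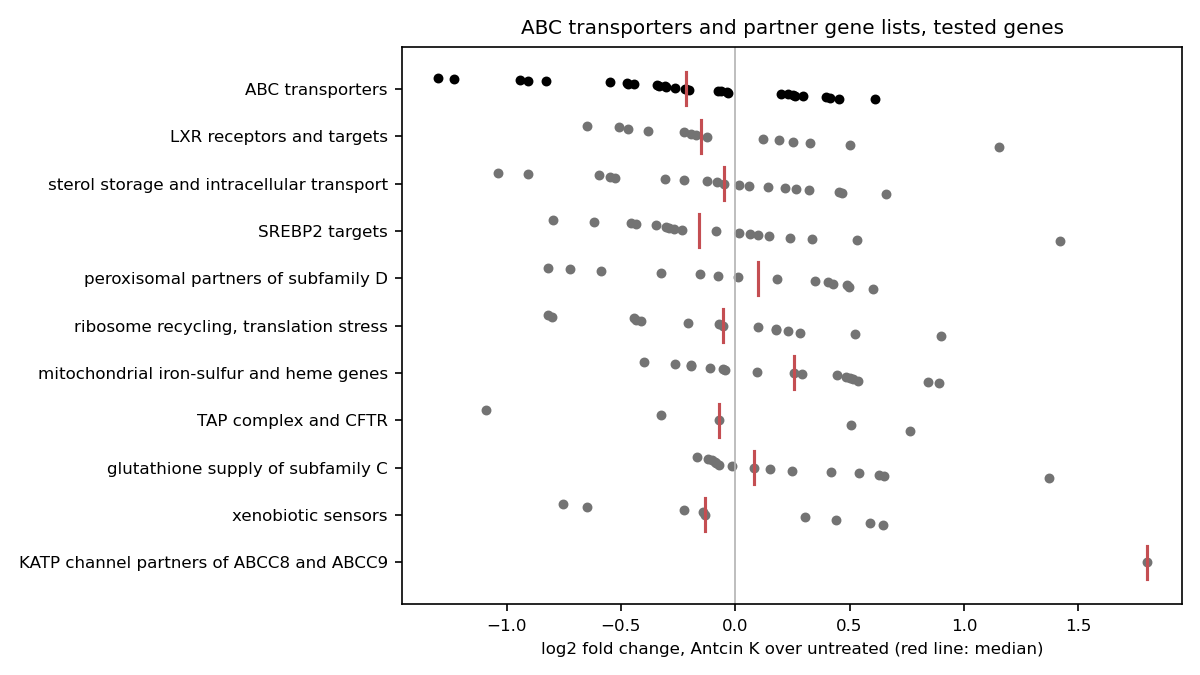
Fitted log2 fold change of the tested ABC transporters (black) and of the tested genes of the 10 partner lists (grey), with each list's median as a red line; points of a list are spread vertically for legibility only. The medians run from -0.22 for the transporters to 0.26 for the mitochondrial iron-sulfur and heme genes, apart from the list with a single gene at 1.80.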

How the data were processed

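Total RNA taken up in TRIzol was read as read pairs on a NovaSeq instrument, per the labels' protocols. The programs listed in the submitters' processing notes are HISAT2 2.2.1, HTSeq 0.6.1 and cutadapt 1.9.1, and the build is hg38. Neither annotation release nor strand setting is stated in the labels or file headers. The deposited table holds raw counts per gene and library beside FPKM values, per the file headers. FPKM recomputed from the counts, exonic lengths and library totals differed from the deposited FPKM by at most 0.00500, so the deposited values hold no further scaling.

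Counts of the 14717 genes past filterByExpr (minimum count 10) were TMM-scaled and fitted with edgeR 4.0.16 (robust quasi-likelihood test, group only), adjusted by Benjamini-Hochberg with a threshold of 0.05. The median biological coefficient of variation was 24.5%. CPM uses the TMM-scaled library size. DESeq2 1.42.0 and limma 3.58.1 ran in R 4.3.3 as alternatives, and the fits were tested on simulated data. Replicates differed by more than counting noise (chi-square per gene 166 untreated, 34.8 Antcin K).

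Full values are given for sterol exporters and drug pumps, the 5 members of lowest p among those higher and among those lower, and the 6 with the highest untreated FPKM, and up to 3 genes per list by p. Members and lists were chosen with earlier results of these data known. Of the members' coordinates, 10 of 46 equal those of GENCODE 29, so coordinates are as deposited. Values of 2 tested members and of 1 partner gene are not reported here singly, though all counts and medians include them.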

Additional observations from a re-analysis of the deposited data

How the results depend on the processing

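Of 329 member fits that left out no library, 316 kept their direction and their side of the threshold and 13 changed sign. The 329 include the DESeq2 fits of 9 members that had no adjusted p, which were counted as not called. ABCB6 was at 0.00039 on log2(FPKM + 1), with and without a minimum mean FPKM of 0.5, and 0.0041 on log2(FPKM + 0.1). ABCD3 was at 0.0127 with library totals only, 0.0115 without a count filter, 0.0211 on both log2(FPKM + 1) fits, 0.0299 on log2(FPKM + 0.1) and 0.0035 without mitochondrially encoded genes. The minimum of 0.5 FPKM left 17 members, of which 10 had a higher mean (58.8%) and 7 a lower one. Of all such genes, 54.2% (pseudocount 1) or 54.6% (pseudocount 0.1) were higher. Groups did not overlap in 6 of the 17 with treated libraries higher and in 3 with them lower. The share of all genes without overlap was not computed at this minimum, so these counts have no background. The members' median was 0.0163 (pseudocount 1) or 0.0299 (pseudocount 0.1), against 0.0349 or 0.0529 over all such genes.

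With each library left out in turn, members called ran from 0 to 7, higher means from 11 to 16, lower means from 14 to 19, groups not overlapping from 7 to 12 higher (23.3% to 40% of members, against 32.5% to 40.2% of all genes) and from 9 to 15 lower (30% to 50%, against 30.8% to 42.7%), the members' median log2 fold change from -0.21 to 0.0945, and partner genes called from 0 to 50 (15 of 128 tested, 11.7%, without untreated replicate 1, where 9.38% of all genes were called, and 50 of 130, 38.5%, without untreated replicate 2, where 25.2% were). Log2 fold changes that crossed 0 included these ranges: ABCA1 -1.39 to 0.11, ABCA2 -1.08 to 0.68, ABCA3 -0.23 to 0.12, ABCA4 -0.16 to 0.84, ABCB1 -1.17 to 0.38, ABCB4 -0.95 to 0.17, ABCB6 -0.30 to 0.24, ABCC1 -1.01 to 0.82, ABCC11 -0.19 to 1.05, ABCC6 -0.43 to 0.0799, ABCD3 -0.18 to 0.16, ABCG4 -1.41 to 0.0469.

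The correlation between same-numbered deviations was -0.32. With 2 libraries per group, this cannot settle whether the replicate numbers pair the samples. A replicate block called 0 members and 0 partner genes, with 26 of all genes (0.177%), and a median of -0.19. A crossed replicate block, chosen after seeing the data, called 1 member, ABCE1, and 14 partner genes, with 1430 of all genes (9.72%). The causes of these differences were not tested. The 16 untested members had at most 16 counts in a library and did not pass the count filter. Whether these low counts came from sequencing depth or from low expression was not tested.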

Other observations

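The table also held 17 rows for ABC pseudogenes, antisense transcripts and a readthrough gene, outside the symbol rule, and 10 of these had 0 counts. ABCA17P was the one with substantial counts, at 19.8 and 31.1 CPM without treatment against 23.2 and 26.6 CPM with it, with overlapping groups. ABCC6P1 had 16 and 1 counts in the control libraries against 4 and 11 in the treated ones, with a log2 fold change of 0.18 (edgeR, adjusted p = 0.953). The readthrough gene ABCF2-H2BK1 had 16 counts against 3987 for ABCF2.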
